A study of Homo sapiens with 24 samples.

Results

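Collagen genes code for the chains of the collagens, the main structural proteins of the extracellular matrix. The genes described here are those whose symbol is COL, a number, A and a number, and 43 of the 26346 genes in the deposited count tables were taken by that rule. They fall into 9 classes: 11 fibrillar genes, 6 of the basement membrane network (COL4A1 to COL4A6), 3 of short-chain networks, 5 of the beaded filaments of type VI, the anchoring fibril gene COL7A1, 10 of the FACIT group that decorates fibrils, 3 transmembrane, 2 multiplexin and 2 other genes. Collagen chains wind around each other in sets into a helix, are trimmed outside the cell in the fibrillar types, and are cross-linked by lysyl oxidases. Type IV chains form the sheets under epithelia, and fibrillar types I, III and V are found in the stroma of the prostate, where fibroblasts rather than the epithelial cells are the usual main source.

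RNA-seq was made from 24 libraries of 3 established cell lines in 12 groups of 2. SW13 cells, labelled an adrenal carcinoma line and known to lack the BRG1 protein (gene SMARCA4, the ATPase of the BAF chromatin remodelling complex), carried BRG1 with ERG, BRG1 with Empty vector, BRG1-K785R (a form changed in the ATPase domain) with ERG, BRG1-K785R with Empty, the control called GFP in the titles with ERG, and GFP with Empty. The protocol text of the GFP libraries names GFP as well, while that of the other libraries names luciferase for the SW13 control. VCaP prostate cancer cells, which carry the TMPRSS2-ERG fusion, received shERG, shARID1A (ARID1A is a BAF subunit) or the control shCt. LNCaP prostate cancer cells, which carry an ETV1 rearrangement, received ERG, ETV1 or Empty vector. ERG and ETV1 are transcription factors of the ETS family. Exposure to lentivirus lasted 48 h in every line, followed by selection for 2 days (SW13, blasticidin and puromycin), 8 days (VCaP, puromycin) or 4 days (LNCaP, blasticidin). The duplicates came from separate infections, selections and cultures per the labels, and the number of hairpins behind each knockdown is not given in the sources used here.

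The libraries held 19754265 to 41996681 counts. ERG stood at 81.0 and 87.9 CPM (counts scaled to the library total) in shERG libraries, 242 and 238 CPM in shARID1A libraries and 330 and 354 CPM in shCt libraries, so it was also lower with shARID1A. ARID1A was at 71.9 and 75.3 CPM in shARID1A libraries against 251 and 250 CPM in shCt libraries. It was also called lower with shERG, by 0.24 on the log2 scale, at 241 ± 9.2 CPM (± SD). In VCaP cells SMARCA4 was at 245 ± 1.3 CPM with shERG (0.49, called higher) and 123 ± 2.2 CPM with shARID1A (-0.38, called lower), against 154 ± 0.5 CPM with shCt. In SW13 cells SMARCA4 was at 2150 and 2201 CPM with BRG1 and Empty, 2180 and 2039 CPM with BRG1-K785R and Empty, 1416 and 1430 CPM with BRG1-K785R and ERG, and 31.4 and 25.5 CPM with GFP and Empty. In LNCaP cells ERG was at 977 ± 27 CPM with ERG and 0.448 ± 0.24 CPM with Empty. ETV1 was already at 579 ± 16 CPM with Empty, against 3687.5 ± 87 CPM with ETV1, a 6.53-fold change. With ERG it was at 473 ± 41 CPM, called lower than Empty (-0.28 on the log2 scale). The 6 adrenal cortex markers (NR5A1, STAR, CYP11A1, CYP17A1, HSD3B2, MC2R) summed to 0.235 to 1.06 CPM in SW13 libraries, with HSD3B2 and MC2R at 0 reads in all 12, so the defining markers of the adrenal label were near 0.

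Promoter windows of 31 of the 43 genes were found in RefSeq's table (GRCh38.p14), each with 250 bases before and 50 after an annotated start. The windows of COL4A1 and COL4A2 are shown because these genes start 127 bases apart on opposite strands and behaved differently between the lines. COL11A1 is shown for its range of levels between lines and COL15A1 for its response to ERG in SW13 cells. Capitals mark matches, on either strand, of CCAAT and of GGGCGG.
COL4A1 (chr13:110307108-110307407, minus strand): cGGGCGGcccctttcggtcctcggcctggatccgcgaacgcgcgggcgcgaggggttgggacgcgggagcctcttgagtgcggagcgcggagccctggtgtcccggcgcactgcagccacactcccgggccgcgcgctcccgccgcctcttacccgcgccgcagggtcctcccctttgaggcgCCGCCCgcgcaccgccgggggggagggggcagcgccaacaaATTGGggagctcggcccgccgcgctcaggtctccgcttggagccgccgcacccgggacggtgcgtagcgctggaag
COL4A2 (chr13:110307034-110307333, plus strand): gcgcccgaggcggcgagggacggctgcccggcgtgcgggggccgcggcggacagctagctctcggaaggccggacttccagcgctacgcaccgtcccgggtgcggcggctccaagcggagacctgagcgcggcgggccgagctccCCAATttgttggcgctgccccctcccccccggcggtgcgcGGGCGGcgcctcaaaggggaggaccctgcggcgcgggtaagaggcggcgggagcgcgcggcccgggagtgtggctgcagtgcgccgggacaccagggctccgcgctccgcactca
COL11A1 (chr1:103108473-103108772, minus strand): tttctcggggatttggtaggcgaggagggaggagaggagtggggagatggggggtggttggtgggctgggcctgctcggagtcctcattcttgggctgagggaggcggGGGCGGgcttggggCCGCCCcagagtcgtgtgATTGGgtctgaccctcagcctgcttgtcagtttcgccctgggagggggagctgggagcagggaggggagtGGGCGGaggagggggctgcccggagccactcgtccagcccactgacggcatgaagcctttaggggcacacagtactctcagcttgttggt
COL15A1 (chr9:98943657-98943956, plus strand): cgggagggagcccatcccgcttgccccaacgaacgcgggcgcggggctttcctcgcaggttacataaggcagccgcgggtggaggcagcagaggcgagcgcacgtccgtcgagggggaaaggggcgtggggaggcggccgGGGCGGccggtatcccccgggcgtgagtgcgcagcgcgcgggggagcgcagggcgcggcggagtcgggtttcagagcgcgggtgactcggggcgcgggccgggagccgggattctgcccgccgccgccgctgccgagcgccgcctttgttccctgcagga
The COL4A1 and COL4A2 windows share 226 bases, in which the same CCAAT and GGGCGG letters are read on opposite strands. COL11A1 held 3 GGGCGG matches and 1 CCAAT match, and COL15A1 held 1 GGGCGG match. Of the 43 windows of collagen genes, 24 held GGGCGG (44.95% of all 35116 windows did), 13 held CCAAT (34.6% of all), 7 held TATAAA (11.5% of all) and 1 held TGANTCA, the AP-1 letters (7.71% of all). The ETS letters CCGGAAG were in 0 of the 43 windows (10.3% of all) and CAGGAAG in 3 (12.7% of all). Each motif was searched on both strands, no 2 of these motifs can match at the same position on 1 strand, and several windows belong to alternative starts of 1 gene. A match is a description of letters in the window and not a binding site.

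SW13 cells carried far more collagen RNA than the prostate lines, and nearly all of it came from fibrillar genes. The 43 genes together made up 6101 to 14068 CPM in SW13 libraries, 330 to 450 CPM in VCaP libraries and 517 to 655 CPM in LNCaP libraries. Fibrillar genes held 96.4% to 98.4% of the collagen CPM in the SW13 groups, 20.8% to 28.0% in the VCaP groups and 14.2% to 18.9% in the LNCaP groups. COL5A2 and COL11A1, chains of the minor fibrillar types V and XI, made up nearly the whole SW13 sum, with 4.76% to 8.10% left to the other 41 genes. Those 41 genes summed to group means of 328 to 664 CPM in SW13, 319 to 398 CPM in VCaP and 530 to 605 CPM in LNCaP cells. The excess in SW13 cells thus lay in COL5A2 and COL11A1. A mean of at least 1 CPM was reached by 26 genes in SW13, 22 in VCaP and 22 in LNCaP, and 0, 4 and 1 genes had no read in any library of these lines.

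Per gene length, on the RPKM scale, COL5A2 (577 ± 263, SD over 12 libraries) and COL11A1 (522 ± 104) led in SW13 cells and their ranges overlapped. COL3A1, the type III chain, followed at 47.7 ± 20.2 RPKM, with its highest value of 83.7 RPKM below the lowest of the leading pair, 366 RPKM, and its lowest, 27.2 RPKM, above the highest of COL18A1, 14.7 RPKM. COL18A1, the source of endostatin, COL26A1, COL6A2, COL27A1 and COL6A1 came next at 7.29, 5.85, 5.83, 5.66 and 4.73 RPKM, with overlapping ranges. In VCaP cells COL9A2, a chain of the cartilage FACIT type IX, had the highest mean, 24.4 ± 16.6 RPKM over 6 libraries, from 9.01 to 46.6 RPKM. It did not lead in shERG cells, where it was at 9.04 and 9.01 RPKM and COL6A1 at 9.995 and 10.35 RPKM. COL18A1 (7.71), COL6A1 (7.39), COL6A2 (6.83), COL5A2 (4.91), COL2A1 (4.25), COL4A5 (4.20) and COL7A1 (4.06 RPKM) followed, with ranges that overlapped those of their neighbours in that order. In LNCaP cells COL6A1 led at 35.9 ± 2.96 RPKM, and its lowest library, 30.9 RPKM, stood above the highest of any other collagen gene. COL4A5 (16.4), COL9A2 (14.4), COL6A2 (14.2), COL1A1 (6.54), COL18A1 (4.97), COL7A1 (4.93) and COL5A2 (3.90 RPKM) came next, again with overlaps between neighbours. COL11A2 has a deposited length of 42818 bases, where the other 42 genes have at most 11579, so its per-length level cannot be set beside theirs.

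**Figure D1:**
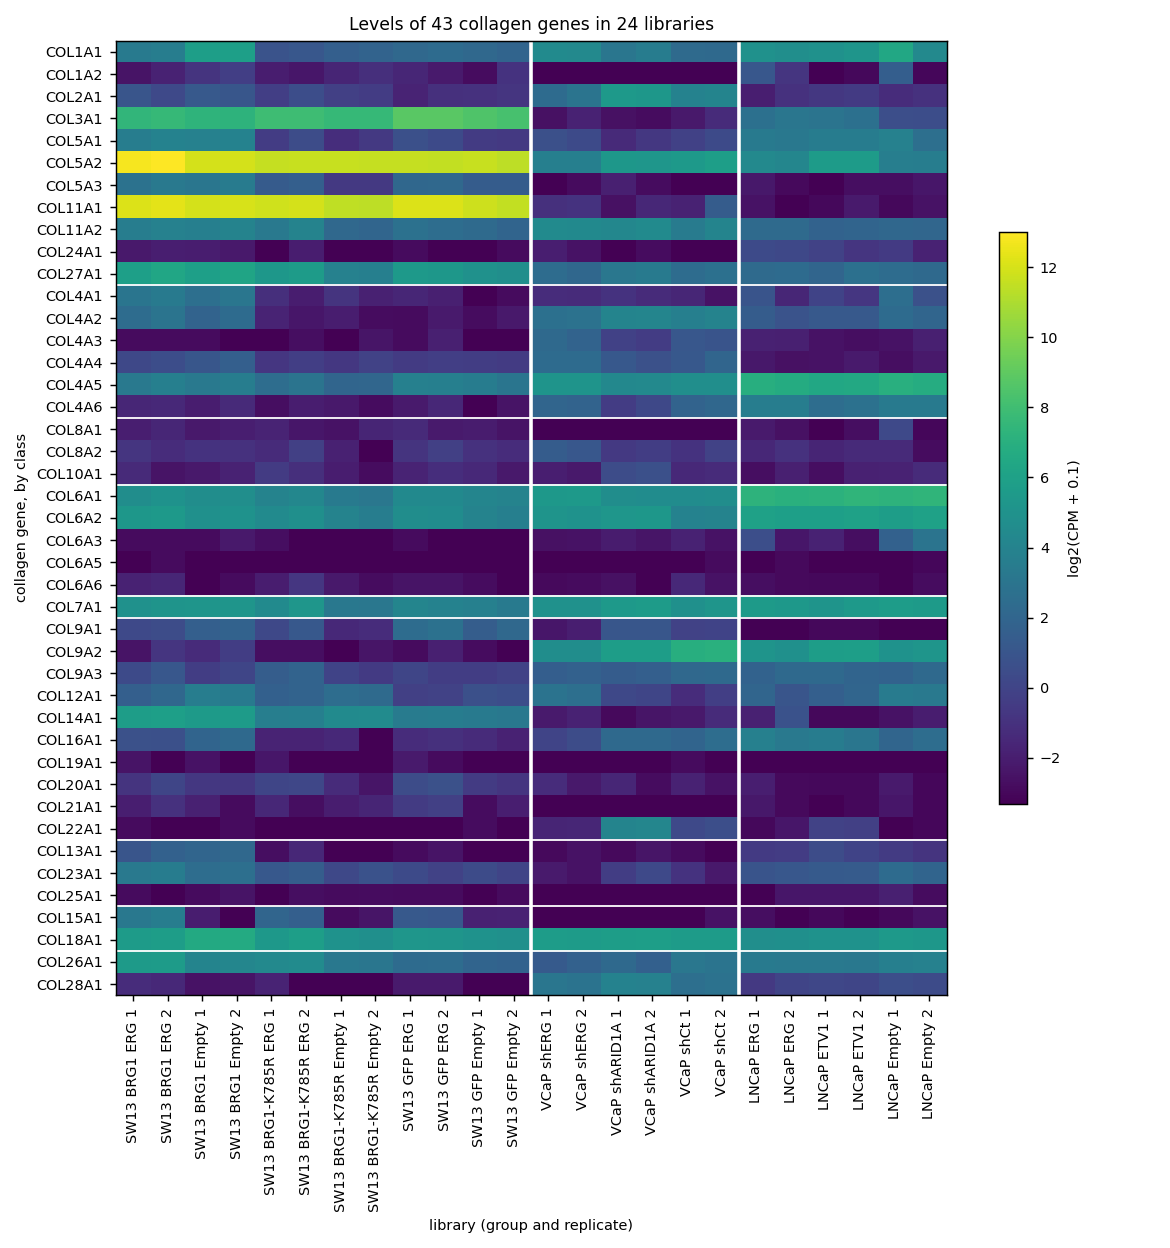
Levels of the 43 collagen genes (rows, white lines between classes) in the 24 libraries (columns, white lines between cell lines), as log2(CPM + 0.1) by colour. COL5A2 and COL11A1 are at or above 2680 CPM in the 12 SW13 libraries, and COL6A1 is the highest collagen gene in each LNCaP library.

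Between the control libraries of the lines, 29 of 34 collagen genes tested differed between SW13 and LNCaP, 9 higher and 20 lower in SW13 (83.1% of all 17718 genes tested were called). 29 of 34 also differed between VCaP and LNCaP, 13 higher and 16 lower in VCaP (81.4% of all genes). These lines differ in origin, selection and vector, and the LNCaP Empty libraries serve in both comparisons. COL11A1 was at 3492 and 2977 CPM in SW13 GFP Empty, 0.196 and 2.56 CPM in VCaP shCt and 0.0252 and 0.0714 CPM in LNCaP Empty libraries. COL5A2 was at 3133 and 2680 CPM in SW13, 43.8 and 56.6 CPM in VCaP and 12.4 and 11.95 CPM in LNCaP controls, and COL3A1 at 365 and 307 CPM, 0.117 and 0.306 CPM, and 1.44 and 1.33 CPM in the same order. The SW13 values of these genes lie above all values of both prostate lines. The SW13 to LNCaP difference was 7.92 ± 0.11 (log2 ± SE) for COL3A1 and 7.90 ± 0.12 for COL5A2, with adjusted p of 1.31e-15 and 1.47e-15. COL27A1, COL14A1 and COL5A3 were also higher in SW13 than in LNCaP, by 2.48, 6.45 and 5.06 on the log2 scale. COL9A1 was at 2.76 and 4.51 CPM in SW13 and had 0 reads in LNCaP Empty, at least 49.4-fold higher against a floor of 3 counts per library.

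On the other side, the type VI chains COL6A1, COL6A2 and COL6A3 and, with the exception of COL4A4 (2.86 higher), the type IV chains were lower in SW13 than in LNCaP. COL4A3, with 0 and 10 reads in these groups, was not called without the second LNCaP Empty library or either SW13 library. COL6A1 was at 17.0 and 15.7 CPM in SW13 GFP Empty, 24.97 and 26.2 CPM in VCaP shCt and 151 and 162 CPM in LNCaP Empty libraries. COL4A5, a basement membrane chain, was at 11.5 and 8.19, 27.3 and 27.0, and 124 and 111 CPM in the same order. COL9A2 had 0.0445 and 0 CPM in SW13 (1 read in all), 122 and 132 CPM in VCaP and 32.6 and 37.1 CPM in LNCaP. The ratio of LNCaP over SW13 was 1677 (95% counting interval 301 to 66249). COL2A1, the cartilage fibrillar chain, was at 15.4 and 16.3 CPM in VCaP against 0.328 and 0.405 CPM in LNCaP controls, a log2 difference of 5.49 ± 0.19 (adjusted p = 1.21e-11). COL12A1, a FACIT chain of dense connective tissue, was at 1.47 and 1.33 CPM in SW13, 0.313 and 0.727 CPM in VCaP and 10.9 and 9.55 CPM in LNCaP controls. COL1A1 was lower in VCaP than in LNCaP by 3.42 ± 0.54 on the log2 scale, but by 2.05 without the first LNCaP Empty library and by 4.11 without the second, where it is at 88.0 and 20.9 CPM.

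In VCaP cells, 22 of the 27 collagen genes tested differed between shERG and shCt libraries, 9 higher and 13 lower in shERG cells (66.7% of all 16791 genes tested were called). The other 16 collagen genes were below the filter on low counts. The median log2 change was -0.31 over the 27 genes and -0.05 over all genes tested, and 3 genes rose and 9 fell at least 2-fold (17.3% of all genes were called at that size). COL9A2 fell most clearly: it was at 25.6 and 25.5 CPM in shERG cells against 122 and 132 CPM in shCt cells, a change of -2.50 ± 0.06 (adjusted p = 2.42e-19). The groups lie far apart, and COL9A2 was at 54.1 and 55.5 CPM in shARID1A cells. COL5A2 was at 13.2 and 13.3 CPM in shERG cells against 43.8 and 56.6 CPM in shCt cells (-2.11 ± 0.10). COL2A1 was at 5.09 and 7.67 CPM in shERG cells against 15.4 and 16.3 CPM in shCt cells (-1.51 ± 0.13). COL4A2, a ubiquitous basement membrane chain, was at 6.39 and 7.01 CPM against 13.1 and 15.9 CPM (-1.30 ± 0.12). These genes had no overlap between shERG and shCt libraries. The FACIT genes COL9A1 (-2.92), COL22A1 (-2.61), COL16A1 (-2.24) and COL9A3 (-0.78) also fell, as did COL26A1 (-1.76). COL27A1 was called at -0.42, a call lost with library totals, under DESeq2, in the fit of these groups alone and without the second shCt or either shERG library. COL18A1 was called at -0.15, but its libraries overlapped, at 52.3 and 50.4 CPM in shERG cells against 49.6 and 51.0 CPM in shCt cells, and the value was 0.03 with library totals and not called under any scaling, tool or filter other than the one used here. COL7A1 fell by 0.31 on the log2 scale, but its libraries overlapped (30.0 and 30.1 against 28.7 and 37.0 CPM) and the call was lost with scaling to library totals, without the second shCt library and without the first shERG library.

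COL12A1 rose most: it was at 7.23 and 6.23 CPM in shERG cells against 0.313 and 0.727 CPM in shCt cells, a change of 3.50 ± 0.27 (adjusted p = 1.78e-10). Without the second shCt library the change was 4.22, more than 1.5 times as large a fold. COL1A1, the main chain of type I collagen, was at 22.1 and 20.2 CPM in shERG cells against 4.93 and 4.70 CPM in shCt cells (1.95 ± 0.13, adjusted p = 1.26e-11). Its partner chain COL1A2 had 0 reads in all 6 VCaP libraries. COL6A2 was at 35.4 and 32.5 CPM against 14.9 and 16.1 CPM (0.95 ± 0.08) and COL6A1 at 42.2 and 43.7 CPM against 24.97 and 26.2 CPM (0.56 ± 0.07). These chains of the type VI microfibril thus rose, while their partner chain COL6A3 stayed at or below 0.196 CPM. COL8A2 (1.69), COL4A3 (0.92), COL4A4 (0.58), COL11A2 (0.46) and COL4A5 (0.17) rose as well. The calls of COL11A2 and COL4A4 were lost without the first shCt library, that of COL4A4 also without the first shERG library, and that of COL4A5 without either shCt library or the second shERG library. DESeq2 did not call COL4A4 (adjusted p = 0.0648) or COL4A5 (adjusted p = 0.0723). COL11A1 was called lower at -1.94 ± 0.65, but 1 library set that value: it was at 0.389 and 0.426 CPM in shERG cells against 0.196 and 2.56 CPM in shCt cells, and without the second shCt library the change was 0.84 (adjusted p = 0.388). DESeq2 did not call it (adjusted p = 0.239).

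Mesenchymal markers moved in the same comparison. The 12 mesenchymal markers summed to 79.2 and 82.8 CPM in shERG, 31.0 and 23.1 CPM in shARID1A and 38.7 and 39.2 CPM in shCt libraries. All 5 that were tested rose with shERG (66.7% of all genes were called, 43.9% of those as higher). LUM and FN1 made up most of the marker sum, and THY1 had 0 reads in all 6 libraries. Their part in the collagen changes was not tested, and in such bulk RNA fewer cells of a type and less RNA per cell cannot be told apart.

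**Figure D2:**
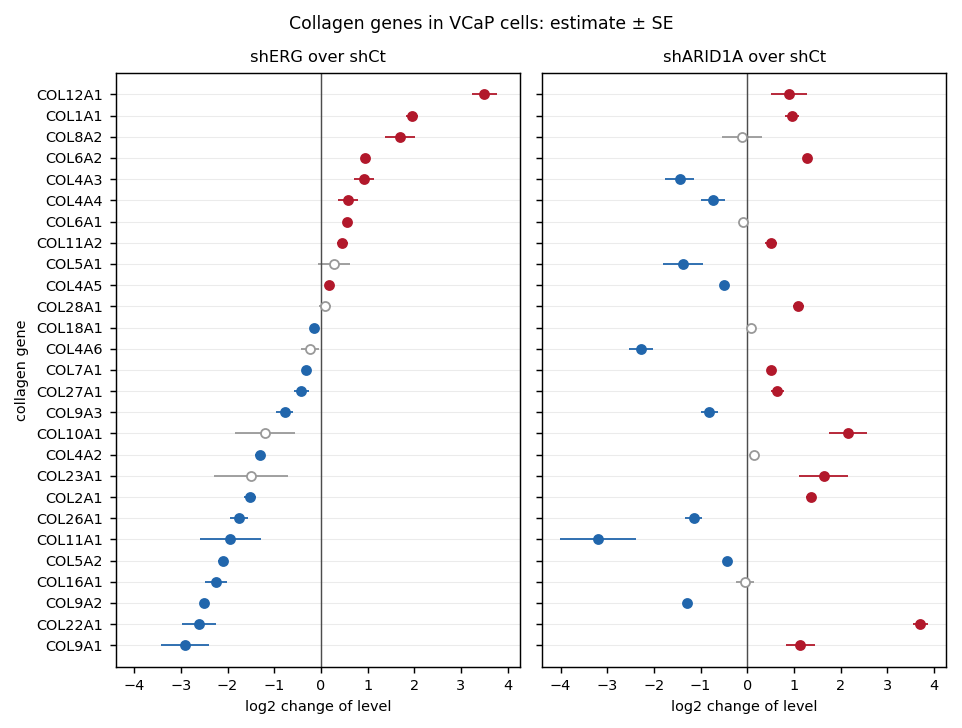
Log2 changes with standard errors of the 27 collagen genes tested in VCaP cells, in shERG over shCt (left) and shARID1A over shCt (right) libraries, ordered by the left panel. Red and blue points passed the test as higher and lower, and grey open points did not. COL22A1, COL9A1 and COL2A1 are below 0 on the left and above 0 on the right.

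With shARID1A, 22 of the 27 genes differed from shCt, 12 higher and 10 lower in shARID1A cells (66.1% of all genes were called), with a median log2 change of 0.08 against 0.01 over all genes tested. Both knockdowns are set against the same shCt libraries. COL22A1, a FACIT chain of tissue junctions such as that of muscle and tendon, was at 16.7 and 17.9 CPM in shARID1A, 0.227 and 0.232 CPM in shERG and 1.10 and 1.41 CPM in shCt libraries. The 3 groups did not overlap, and the change was 3.71 ± 0.17 with shARID1A (adjusted p = 1.02e-14) and -2.61 ± 0.37 with shERG (adjusted p = 1.97e-06). COL2A1 was at 45.3 and 40.1 CPM in shARID1A libraries (1.37 ± 0.10), again on the other side of shCt from shERG. COL9A1 was at 1.99 and 1.93 CPM in shARID1A cells against 0.822 and 0.879 CPM in shCt cells (1.14 ± 0.31), with 0.0973 and 0.155 CPM in shERG cells. COL6A2 was at 38.6 and 40.5 CPM with shARID1A (1.29 ± 0.08) and thus stood above shCt with both knockdowns, as COL1A1 did with 8.45 and 11.4 CPM (0.96 ± 0.14). COL28A1 (1.09), COL10A1 of hypertrophic cartilage (2.16), COL27A1 (0.64), COL7A1 (0.50) and COL11A2 (0.51) were higher with shARID1A too, the last not without the first shCt library.

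COL9A2 was lower with shARID1A by 1.28 ± 0.05 (adjusted p = 3.25e-15). COL4A6 was at 0.663 and 1.07 CPM in shARID1A cells against 3.52 and 4.36 CPM in shCt cells (-2.27 ± 0.26), and its head-to-head partner COL4A5 at 19.5 and 21.0 against 27.3 and 27.0 CPM (-0.49 ± 0.08). The head-to-head pair COL4A3 and COL4A4 fell by 1.45 and 0.73 on the log2 scale with shARID1A, where it rose with shERG. The fall of COL4A4 was lost without the second shCt library (-0.26) or the second shARID1A library (-0.54). COL26A1 (-1.15), COL5A2 (-0.44), COL9A3 (-0.81) and COL11A1 (-3.19) were also called lower, but COL11A1 was at -0.41 and not called without the second shCt library, nor was it called without the first shARID1A library or by DESeq2 (adjusted p = 0.0521). With shARID1A tested over shERG, the libraries differed in 24 of 27 genes, 15 higher and 9 lower in shARID1A cells (73% of all genes were called). The changes were 6.32 ± 0.22 for COL22A1, 2.88 ± 0.12 for COL2A1, 4.05 ± 0.44 for COL9A1, 1.66 ± 0.10 for COL5A2, 1.45 ± 0.11 for COL4A2 and 2.19 ± 0.24 for COL16A1. They were -2.61 ± 0.24 for COL12A1, -2.37 ± 0.27 for COL4A3, -2.04 ± 0.26 for COL4A6, -1.81 ± 0.33 for COL8A2 and -0.99 ± 0.11 for COL1A1.

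In LNCaP cells the duplicates of the control were uneven for several collagen genes, which limits what follows. COL1A1 was at 88.0 and 20.9 CPM in the Empty libraries, COL1A2 at 2.80 and 0.0238 CPM, COL5A1 at 14.4 and 6.07 CPM, COL4A1 at 5.92 and 1.57 CPM, and COL8A1 at 1.13 and 0.0238 CPM. The first Empty library was the higher in each of these, whereas COL6A3 was at 3.30 CPM in the first and 7.81 CPM in the second. The second ERG library was the higher in COL14A1, with 0.181 and 1.67 CPM in ERG libraries, 0.0250 and 0.0255 CPM in ETV1 and 0.0756 and 0.143 CPM in Empty libraries. COL1A1, COL1A2, COL5A1 and COL4A1 did not pass in either comparison with Empty. The 12 mesenchymal markers summed to 1908 and 2025 CPM in ERG, 945 and 1029 CPM in ETV1 and 740 and 879 CPM in Empty libraries, mostly through FN1. Of the fibroblast markers among them, DCN was at 0.826 and 2.76 CPM and LUM at 0.207 and 6.27 CPM in ERG libraries, against 0.0504 and 0.0476 CPM and 1.81 and 0.167 CPM in Empty libraries. PDGFRB was at 2.85 and 0.667 CPM in Empty libraries. Their part in the collagen values was not tested.

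With ERG, 10 of the 28 collagen genes tested in LNCaP cells differed from Empty, 4 higher and 6 lower in ERG cells (29.7% of all 16993 genes tested were called). With ETV1, 14 of 28 differed, 6 higher and 8 lower in ETV1 cells (26.1% of all genes). The median log2 change was -0.08 in both, against 0.00 and 0.01 over all genes tested, and both comparisons use the same Empty libraries. Without the first Empty library, where COL1A1 stood apart, 11 genes were called with ERG and 10 with ETV1. With ETV1, 9 were called without the first ETV1 library and 17 without the second Empty library. COL3A1 was at 6.38 and 8.59 CPM in ERG, 7.84 and 6.37 CPM in ETV1 and 1.44 and 1.33 CPM in Empty libraries. Both factors stood above Empty with no overlap, at 2.43 ± 0.20 with ERG (adjusted p = 4.93e-05) and 2.39 ± 0.20 with ETV1 (adjusted p = 6.16e-05). COL5A2 was at 20.1 and 18.1 CPM in ERG, 49.98 and 49.6 CPM in ETV1 and 12.4 and 11.95 CPM in Empty libraries. The order ETV1 above ERG above Empty held in every library, with changes over Empty of 0.67 ± 0.08 (ERG) and 2.07 ± 0.07 (ETV1). COL16A1 was at 13.8 and 9.64, 11.3 and 8.59, and 3.91 and 5.64 CPM in the same order of groups (1.31 ± 0.23 and 1.09 ± 0.23), and its call with ETV1 was lost without the first Empty or the first ETV1 library.

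COL9A2 was higher with ETV1, at 54.7 and 56.1 CPM against 32.6 and 37.1 CPM in Empty libraries (0.70 ± 0.09, adjusted p = 0.00054), and stood at 34.7 and 29.8 CPM with ERG. COL24A1 with ERG (1.56) and COL13A1 with ETV1 (1.07) were called near the level set for naming genes, a group mean of 1 CPM. DESeq2 called neither (adjusted p = 0.058 and 0.147), the first call was lost without the second Empty library or either ERG library, and the second without any of the 4 libraries. COL22A1, whose mean stays under the level set for naming and which was picked after its values were seen, had 0.851 and 0.739 CPM in ETV1, 0.0258 and 0.102 CPM in ERG and 0 and 0.0238 CPM in Empty libraries. The ratio of ETV1 over Empty was 65.0 (95% counting interval 11.2 to 2607). Among genes that fell, COL12A1 was at 3.87 and 1.84 CPM in ERG, 3.03 and 3.85 CPM in ETV1 and 10.9 and 9.55 CPM in Empty libraries. Both factors lie below Empty without overlap, at -1.80 ± 0.27 and -1.54 ± 0.26, and the ERG value was -2.47 without the first ERG library. COL18A1 was at 27.3 and 27.6, 31.6 and 31.9, and 44.4 and 39.7 CPM (-0.61 ± 0.07 and -0.37 ± 0.07). COL23A1 (-1.18 and -0.81), COL4A2 (-1.07 and -0.96) and COL26A1 (-0.44 and -0.53) were called lower with both, though the ETV1 calls of COL23A1, COL4A2 and COL18A1 and the ERG call of COL4A2 were lost without the first Empty library. The ETV1 calls of COL23A1 and COL4A2 were also lost without either ETV1 library, and the ERG call of COL26A1 without the second Empty library. COL4A6 (-0.68) and COL4A5 (-0.34) were lower with ETV1, and COL4A5 not without the first Empty or the first ETV1 library. COL6A3 was at 1.39 and 0.102 CPM in ERG and 0.200 and 0.0510 CPM in ETV1 libraries (-2.78 ± 0.69 and -5.39 ± 0.91), and DESeq2 did not call it with ERG (adjusted p = 0.137). Its ERG value was -5.72 without the first ERG library, -1.98 without the second, and -2.05 and not called without the second Empty library. Its ETV1 value was -6.64 without the first ETV1 library, -4.73 and not called without the second, and -4.63 without the second Empty library.

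Set against each other, ERG and ETV1 libraries differed in 6 of 28 genes, 2 higher and 4 lower with ERG (14.4% of all genes were called). Without the first ETV1 library 3 were called, and without the second also 3. COL4A6 was at 12.1 and 11.99 CPM with ERG against 5.73 and 6.78 CPM with ETV1 (0.92 ± 0.11, adjusted p = 0.000835), and COL4A5 was higher with ERG by 0.29 ± 0.07. COL5A2 was lower with ERG than with ETV1 by 1.40 ± 0.07 on the log2 scale and COL9A2 by 0.81 ± 0.09. The call of COL18A1 (-0.24) was lost in every refit that left out a library of these groups, and that of COL4A5 in 3 of 4.

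**Figure D3:**
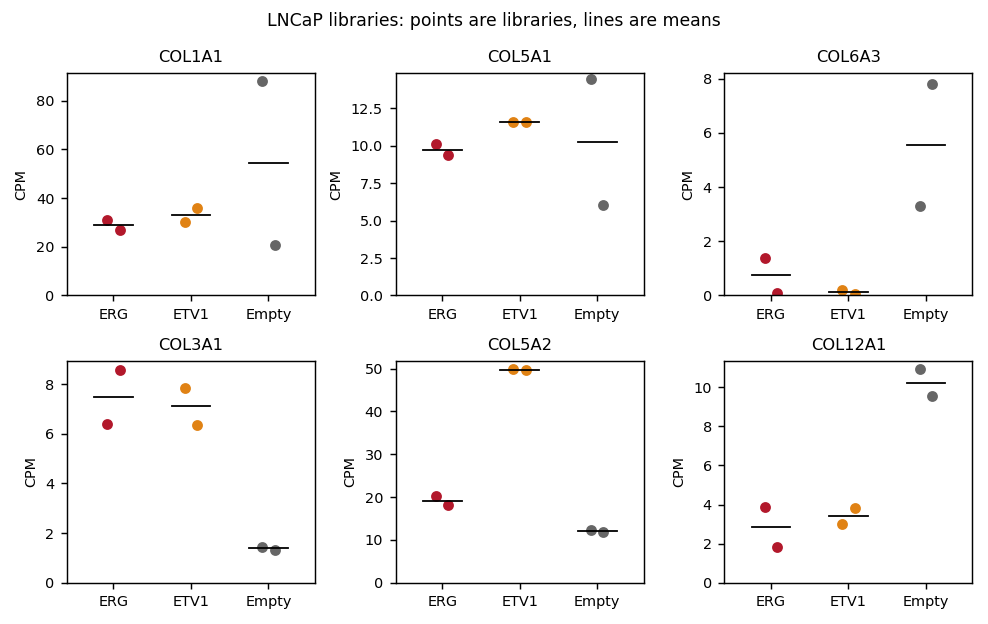
CPM of 6 collagen genes in each LNCaP library, by group, with the group mean as a line. The Empty libraries differ widely in COL1A1, with 88.0 and 20.9 CPM, and lie apart in COL5A1 and COL6A3, while COL5A2 separates all 3 groups and COL3A1 and COL12A1 separate ERG and ETV1 from Empty.

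In SW13 cells most collagen genes measured were higher with BRG1. With Empty vector, 23 of the 31 genes tested differed between BRG1 and GFP, 22 higher and 1 lower with BRG1 (62.4% of all 17018 genes tested were called, 32.2% as higher). The median log2 change was 1.55 over the 31 genes and 0.03 over all genes tested, and 18 genes were at least 2-fold higher and 1 at least 2-fold lower (15.9% of all genes were called at that size). COL1A1 was at 57.9 and 59.3 CPM with BRG1, 2.97 and 3.62 CPM with BRG1-K785R and 4.45 and 3.72 CPM with GFP. The BRG1 libraries stand far above both others, with 3.71 ± 0.13 over GFP (adjusted p = 2.86e-22) and 3.95 ± 0.13 over BRG1-K785R. COL5A1, the other main type V chain beside COL5A2, was at 14.5 and 14.8, 0.338 and 0.543, and 0.624 and 0.549 CPM in the same order (4.50 ± 0.23 over GFP). COL14A1, a FACIT chain, was at 47.6 and 49.8, 22.3 and 23.5, and 10.7 and 9.32 CPM, so that BRG1-K785R lay between the other groups. COL18A1 was at 95.1 and 99.9, 32.1 and 28.0, and 32.0 and 28.95 CPM (1.55 ± 0.10), and COL7A1 at 36.4 and 36.8, 9.06 and 8.87, and 13.9 and 10.5 CPM (1.46 ± 0.14). COL26A1 rose by 2.12 ± 0.13 and COL12A1 by 2.86 ± 0.20 on the log2 scale.

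The basement membrane pair COL4A1 and COL4A2 and the transmembrane gene COL13A1 were at or near 0 reads with GFP and rose with BRG1. COL4A1 was at 6.17 and 8.52 CPM with BRG1, 0.451 and 0.181 CPM with BRG1-K785R and 0 and 0.0392 CPM with GFP. The ratio of BRG1 over GFP was 350 (95% counting interval 62.5 to 13879), since GFP libraries held 1 read. COL4A2 was at 3.57 and 5.10, 0.150 and 0.0453, and 0.0445 and 0.118 CPM (5.48 ± 0.46 over GFP, and 6.34 without the second GFP library). COL13A1, a transmembrane collagen of cell junctions, was at 3.87 and 4.46 CPM with BRG1 and had 0 reads with GFP and with BRG1-K785R, at least 33.2-fold and 33.5-fold higher against a floor of 3 counts per library. COL3A1 was the gene that went down: 157 and 149 CPM with BRG1, 199 and 195 CPM with BRG1-K785R and 365 and 307 CPM with GFP, a change over GFP of -1.26 ± 0.08 (adjusted p = 1.7e-15) for BRG1 and -0.69 ± 0.08 for BRG1-K785R. COL11A1 was at 3975 and 4199 CPM with BRG1 against 3492 and 2977 CPM with GFP (0.21 ± 0.07), a call lost without the second GFP Empty or the second BRG1 Empty library. COL5A2 was at 4069 and 4056 against 3133 and 2680 CPM (0.35 ± 0.07). The 12 mesenchymal markers summed to 246 and 243 CPM with BRG1, 171 and 161 CPM with BRG1-K785R and 121 and 130 CPM with GFP, with PDPN at 0 reads in all 12 SW13 libraries. The part of these markers was not tested.

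With BRG1-K785R, whose SMARCA4 level overlapped that of BRG1, 11 of 31 genes differed from GFP, 5 higher and 6 lower (58.7% of all genes were called), and 4 higher and 9 lower with scaling to library totals. The median log2 change was 0.05 in both the 31 genes and all genes. COL12A1 was at 5.56 and 4.93 CPM with BRG1-K785R against 1.47 and 1.33 CPM with GFP (1.99 ± 0.22), COL26A1 at 9.10 and 8.37 against 3.70 and 3.49 CPM (1.37 ± 0.14), and COL14A1 rose by 1.28 ± 0.10 on the log2 scale. These 3 were higher than GFP with both forms of BRG1. COL9A1 was at 0.263 and 0.317 CPM with BRG1-K785R against 2.76 and 4.51 CPM with GFP (-3.57 ± 0.38, adjusted p = 9.48e-10), and COL5A3 at 0.564 and 0.543 against 2.58 and 2.59 CPM (-2.13 ± 0.31). COL4A5 (-1.21), COL27A1 (-0.93) and COL6A1 (-0.68) also fell, while the call of COL5A2 (0.20) was lost with library totals, without the second GFP library or without the first BRG1-K785R library. COL4A1, with 1 read in GFP libraries, was called higher at a ratio of 15.8 (95% counting interval 2.45 to 661), but not without the first BRG1-K785R library. Directly compared, BRG1 and BRG1-K785R differed in 25 of 31 genes, 24 higher and 1 lower with BRG1 (66.7% of all genes were called), with a median log2 change of 1.48 against 0.01 over all genes. COL5A1 (4.86 ± 0.25), COL5A3 (3.90 ± 0.25), COL27A1 (2.02 ± 0.13), COL7A1 (1.82 ± 0.15), COL18A1 (1.48 ± 0.10) and COL6A1 (1.24 ± 0.12) were higher with BRG1, and COL3A1 lower (-0.57 ± 0.08). COL4A1 and COL4A2 were higher by 4.25 and 5.12 on the log2 scale, and by 5.09 and 6.22 without the first BRG1-K785R library.

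**Figure D4:**
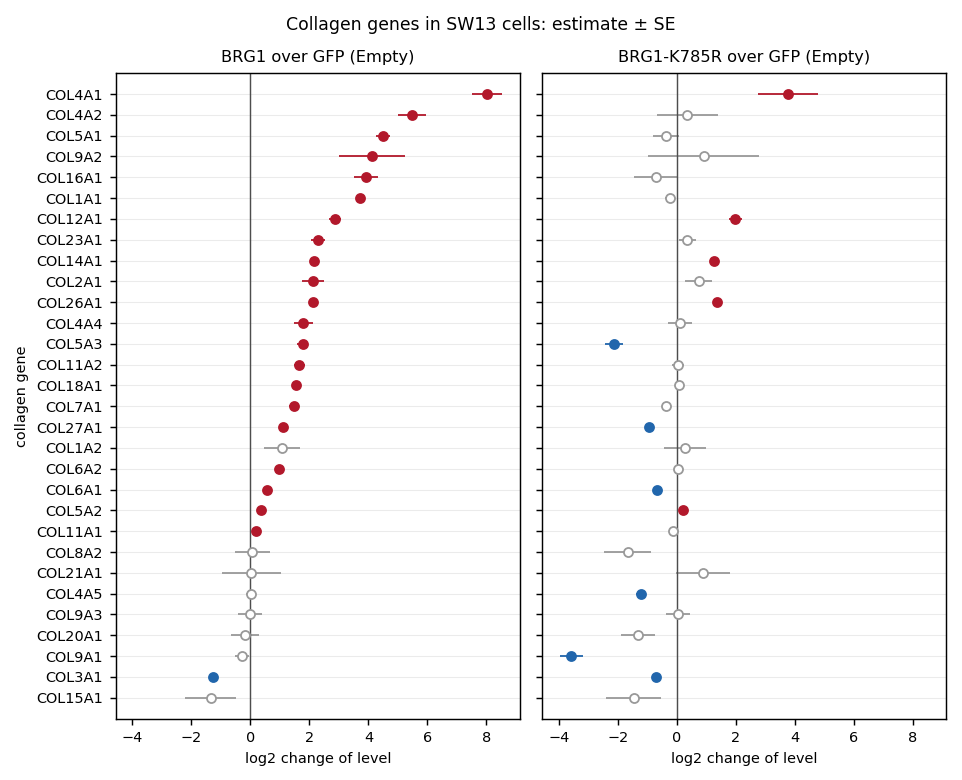
Log2 changes with standard errors of 30 collagen genes in SW13 cells with Empty vector, for BRG1 over GFP (left) and BRG1-K785R over GFP (right), ordered by the left panel. Red and blue points passed the test as higher and lower, and COL13A1, with 0 reads in GFP libraries, is not drawn. Most genes lie right of 0 on the left, while on the right genes lie on both sides of 0, with 5 called higher and 6 lower.

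COL15A1 was higher with ERG in SW13 cells in all 3 settings. This multiplexin of vascular and other basement membranes was at 9.19 and 11.9 CPM with ERG against 0.150 and 0 CPM with Empty in BRG1 cells, 3.90 and 2.98 against 0.0376 and 0.0905 CPM in BRG1-K785R cells, and 2.24 and 2.05 against 0.178 and 0.196 CPM in GFP cells. ERG and Empty libraries did not overlap in any setting. The change was 7.03 ± 0.38 with BRG1 (adjusted p = 3.77e-16), 6.12 without the second BRG1 Empty library and 10.92 without the first, which leaves 0 reads on the Empty side, and 3.42 ± 0.43 with GFP (adjusted p = 7.73e-07). In BRG1-K785R cells the ratio was 55.8 (95% counting interval 18.7 to 274). The difference between the ERG effects with BRG1 and with GFP was 3.61 ± 0.92 (adjusted p = 0.00239), and 7.50 and 2.70 without the first and the second BRG1 Empty library. An antisense gene shares 137 exon bases with COL15A1 in the GENCODE v29 annotation. The 6 endothelial markers summed to 53.9 and 64.6 CPM with BRG1 and ERG against 22.3 and 21.9 CPM with BRG1 and Empty, to 33.1 and 30.5 against 13.5 and 13.6 CPM with BRG1-K785R, and to 28.5 and 28.4 against 22.3 and 23.6 CPM with GFP. KDR and TEK made up most of these sums. None of the 6 markers was called with ERG in GFP cells, and only TEK (1.13) in BRG1-K785R cells. In BRG1 cells CLDN5 fell with ERG (-1.16) and the others rose. The part of these markers was not tested.

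With GFP, ERG changed 13 of 31 collagen genes, 12 higher and 1 lower (26% of all genes were called), but 6 to 9 were called when a library was left out, with 8 without the first GFP Empty library, 6 without the second and 6 without the second GFP ERG library. The median log2 change was 0.42 over the 31 genes and 0.00 over all genes. COL11A1 was at 4604 and 4537 CPM with ERG against 3492 and 2977 CPM with Empty (0.45 ± 0.07), COL3A1 at 459 and 458 against 365 and 307 CPM (0.40 ± 0.07), and COL6A2 at 26.0 and 24.9 against 15.4 and 13.1 CPM (0.79 ± 0.12). COL27A1 (0.51), COL5A3 (0.72), COL20A1 (1.35), COL26A1 (0.49), COL5A1 (1.11) and COL6A1 (0.33) were called higher and COL12A1 (-0.85) lower, and each of these 7 calls was lost without at least 1 library. With BRG1-K785R, ERG changed 22 of 31 genes, 18 higher and 4 lower (56.2% of all genes), with a median of 0.56 against -0.01. SMARCA4 itself was lower with ERG in these cells, and the ERG libraries were uneven: COL7A1 was at 22.6 and 37.6 CPM with ERG against 9.06 and 8.87 CPM with Empty (1.55 ± 0.15), and COL11A2 at 9.52 and 15.9 against 4.44 and 3.85 CPM (1.42 ± 0.18). COL27A1 was at 39.6 and 50.1 against 14.5 and 13.4 CPM (1.49 ± 0.13), and COL5A3 (2.07), COL9A3 (1.88), COL26A1 (1.14), COL6A1 (0.67), COL6A2 (0.66) and COL18A1 (0.54) rose. COL14A1 (-1.02), COL1A1 (-0.99) and COL12A1 (-0.82) fell, and the call of COL5A2 (-0.20) was lost with library totals, without the first Empty library or without the first ERG library.

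With BRG1, ERG changed 18 of 31 genes, 10 higher and 8 lower (45.4% of all genes were called), with a median of 0.12 against 0.00. COL5A2 was at 7239 and 8276 CPM with ERG against 4069 and 4056 CPM with Empty, a change of 0.98 ± 0.08 (adjusted p = 2.11e-12). With GFP it was at 3025 and 2897 CPM with ERG against 3133 and 2680 CPM with Empty, so the BRG1 and ERG libraries stand alone above all others. COL26A1 was at 48.7 and 50.5 CPM with ERG against 16.6 and 17.6 CPM with Empty (1.58 ± 0.09), COL23A1, a transmembrane collagen, at 9.67 and 11.3 against 5.64 and 6.11 CPM (0.88 ± 0.17), and COL6A2 at 40.2 and 44.9 against 29.2 and 32.0 CPM (0.53 ± 0.10). COL3A1 (0.32), COL11A1 (0.29) and COL14A1 (0.29) rose, and the calls of COL11A1 and COL14A1 were lost without the second BRG1 ERG library. COL14A1, COL4A2 (0.66) and COL9A3 (1.03) were not called without the first BRG1 Empty library, and the last 2 not without the second BRG1 ERG library or by DESeq2 (adjusted p = 0.119 and 0.0529).

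Several genes that were higher with BRG1 over GFP were lower with ERG added. COL1A1 was at 10.2 and 11.9 CPM with BRG1 and ERG against 57.9 and 59.3 CPM with BRG1 and Empty, a change of -2.37 ± 0.11 (adjusted p = 5.09e-18), and at 4.55 and 5.18 against 4.45 and 3.72 CPM with GFP. COL12A1 was at 2.997 and 4.22 CPM with ERG against 11.9 and 10.4 CPM with Empty (-1.58 ± 0.17), and COL18A1 at 50.1 and 54.5 against 95.1 and 99.9 CPM (-0.85 ± 0.09). COL16A1 (-1.42), COL4A4 (-1.01) and COL13A1 (-0.66) fell as well. COL13A1 was not called under DESeq2 nor without either BRG1 Empty library or the first BRG1 ERG library. COL4A4 was not called without the second BRG1 Empty library or the first BRG1 ERG library. COL9A1 (-1.41) also fell but was not higher with BRG1 over GFP. It was at 3.05 and 3.50 CPM with BRG1 and Empty against 2.76 and 4.51 CPM with GFP and Empty. In these libraries COL5A2 was at its highest, while COL5A1 was at 11.8 and 15.0 CPM with ERG against 14.5 and 14.8 CPM with Empty (-0.08, not called). COL18A1 shares 1401 exon bases with SLC19A1 on the opposite strand, and the strand of the counting is not given in the sources used here, so its reads and those of SLC19A1 cannot be told apart there. The same limit holds for shorter overlaps with opposite-strand genes in COL5A3 (270 bases), COL4A3 (120), COL16A1 (117), COL19A1 (70), COL9A1 (52) and COL9A3 (45).

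The ERG effect itself differed between BRG1 and GFP cells for 11 of 31 genes, 4 more positive and 7 more negative with BRG1 (37.8% of all genes were called). The difference was 1.00 ± 0.11 for COL5A2 (adjusted p = 1.03e-08), 1.09 ± 0.18 for COL26A1 and 1.04 ± 0.36 for COL23A1, whose call was lost without the first GFP Empty, the second GFP ERG or the second BRG1 ERG library. It was -2.57 ± 0.19 for COL1A1 (adjusted p = 1.01e-11), -1.10 ± 0.14 for COL18A1 and -2.05 ± 0.36 for COL9A1. Between BRG1 and BRG1-K785R cells the ERG effect differed for 14 genes, 3 more positive and 11 more negative with BRG1 (46.2% of all genes were called), with a median of -0.76 against 0.05 over all genes. COL5A2 (1.18 ± 0.11) and COL14A1 (1.30 ± 0.13) were on the positive side, and COL18A1 (-1.39 ± 0.14), COL7A1 (-1.68 ± 0.20), COL27A1 (-1.35 ± 0.17), COL5A3 (-2.22 ± 0.36) and COL1A1 (-1.37 ± 0.25) on the negative side. SMARCA4 fell by 0.76 on the log2 scale with ERG in BRG1-K785R cells, against a change of 0.00 in BRG1 cells, and its part in these differences was not tested. In the ERG libraries ERG itself averaged 2003 ± 204 CPM with BRG1, 1597 ± 17 CPM with BRG1-K785R and 1530 ± 80 CPM with GFP (± SD). It was higher with BRG1 than with GFP by 0.35 on the log2 scale (adjusted p = 0.000247), and the part of this was not tested. With ERG present in both, BRG1 and GFP libraries differed in 25 of 31 genes, 21 higher and 4 lower with BRG1 (58.9% of all genes), with a median of 0.97 against 0.01. COL26A1 was 3.21 ± 0.11 higher there, COL14A1 2.32 ± 0.09, COL5A1 3.31 ± 0.20, COL23A1 3.33 ± 0.22 and COL5A2 1.36 ± 0.08, and COL1A1 was 1.14 ± 0.14 higher, on the log2 scale. COL3A1 (-1.34 ± 0.08) and COL9A1 (-2.35 ± 0.26) were lower with BRG1, and COL20A1 (-1.08) lost its call without the second GFP ERG or the first BRG1 ERG library and under DESeq2 (adjusted p = 0.0757).

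**Figure D5:**
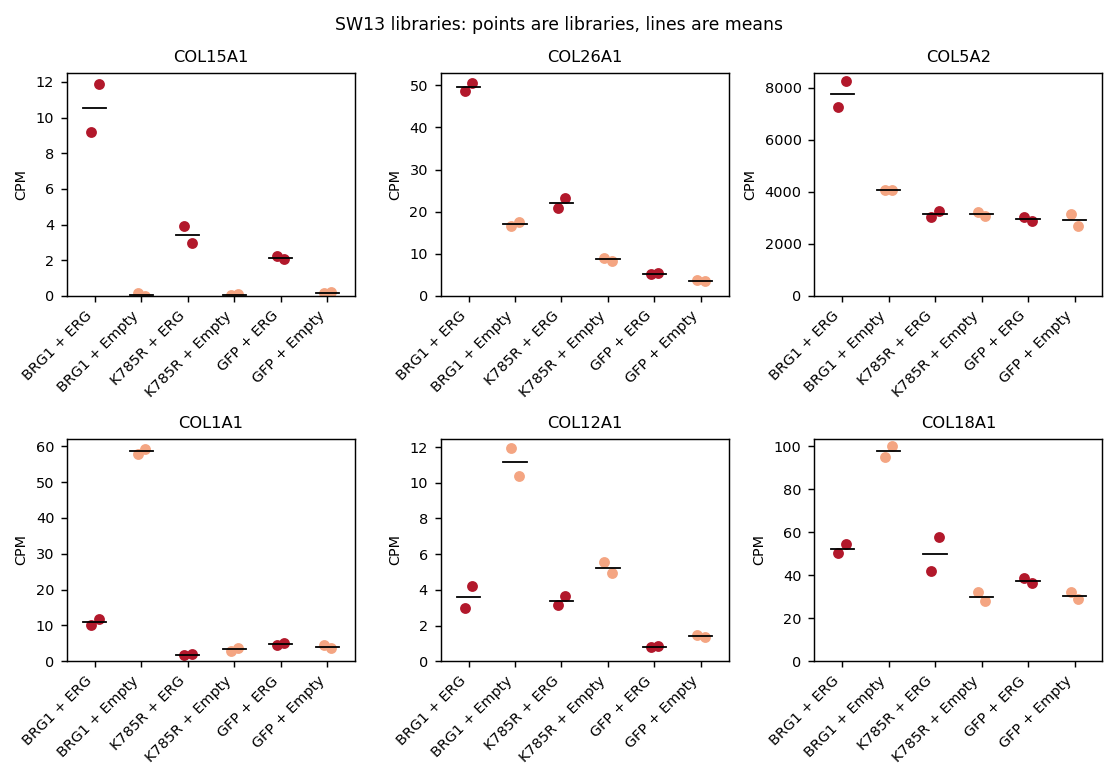
CPM of 6 collagen genes in each SW13 library, by construct pair (dark red with ERG, light red with Empty), with the group mean as a line. COL15A1 rises with ERG in each pair, COL5A2 and COL26A1 peak with BRG1 and ERG, and COL1A1, COL12A1 and COL18A1 peak with BRG1 and Empty.

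The 6 type IV genes lie in 3 head-to-head pairs, and the members of a pair did not always go together. COL4A2 was at 6.39 to 16.8 CPM in the 6 VCaP libraries while COL4A1 was at 0.0765 to 0.419 CPM, although their starts are 127 bases apart. In SW13 cells with BRG1 and Empty both were up, COL4A1 at 6.17 and 8.52 CPM and COL4A2 at 3.57 and 5.10 CPM. An antisense gene, COL4A2-AS1, shares 81 exon bases with COL4A2, so reads there cannot be told apart by strand. COL4A5 and COL4A6, chains known from skin and smooth muscle basement membranes, were at 88.6 to 124 and 5.73 to 12.1 CPM in LNCaP libraries, and COL4A6 was at or below 0.281 CPM in all 12 SW13 libraries. COL4A3 and COL4A4, the chains of the kidney filter, were at 0.644 to 4.67 and 1.59 to 5.22 CPM in VCaP libraries and at or below 0.181 and 0.127 CPM in LNCaP libraries. The starts of these pairs lie 380 or 1416 bases apart (COL4A5 and COL4A6, by the start used) and 419 bases apart.

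The genes that act on collagen chains were described from 3 lists: 18 genes of chain modification and folding, 13 of propeptide cleavage and cross-linking, and 10 receptors. With shERG in VCaP cells, 2 of 18 modification genes rose and 8 fell, 5 of 11 cleavage and cross-linking genes tested rose and 3 fell, and 2 of 6 receptors rose and 2 fell, where 66.7% of all genes were called. PLOD2, a lysyl hydroxylase, was at 170 ± 0.65 CPM in shERG cells against 29.5 ± 4.4 CPM in shCt cells (SD, n = 2 each), a log2 change of 2.35, and CRTAP, of the prolyl 3-hydroxylase complex, at 40.2 ± 3.4 against 138 ± 3.2 CPM (-1.97). With shARID1A PLOD2 was lower than in shCt cells (-1.26) and the receptor kinase DDR1 higher (1.23). In LNCaP cells 3 of 18 modification genes rose and 4 fell with ERG, and 7 rose and 3 fell with ETV1, where 29.7% (ERG) and 26.1% (ETV1) of all genes were called. TLL1, a propeptide protease, rose with ERG (1.16) and with ETV1 (1.28), as did ITGA2, a collagen-binding integrin chain (0.96 and 1.04).

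In SW13 cells with Empty vector, 7 of 11 cleavage and cross-linking genes rose with BRG1 over GFP and 1 fell, and 7 of 9 receptors rose and 1 fell, whereas 4 of 17 modification genes rose and 9 fell (62.4% of all genes were called, 32.2% as higher). BMP1, the procollagen C-proteinase, was at 103 ± 5.85 CPM with BRG1 against 28.9 ± 1.41 CPM with GFP (1.70), and the cross-linking enzymes LOXL2 (1.95) and LOXL4 (3.19) and the receptors ITGA2 (5.38) and DDR1 (1.27) rose with it. P4HA1, a prolyl hydroxylase subunit, was at 149 ± 1.0 against 306 ± 25 CPM (-1.17). With BRG1-K785R over GFP, 1 of 11 cleavage and cross-linking genes rose and 3 fell, 1 of 9 receptors rose and 3 fell, and 4 of 17 modification genes rose and 8 fell (58.7% of all genes were called). With ERG in BRG1 cells SERPINH1, the collagen chaperone HSP47, was at 643 ± 1.1 CPM against 431 ± 5.8 CPM with Empty (0.62), and ITGA2 fell (-2.53). In the controls SERPINH1 was at 341 ± 12 CPM in SW13, 35.0 ± 0.13 CPM in VCaP and 3.03 ± 0.36 CPM in LNCaP libraries. Of 18 modification genes, 13 were higher in SW13 than in LNCaP and 2 lower. Of all genes tested there, 83.1% were called in either direction, and 46.5% of those called were higher in SW13.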

How the data were processed

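Each of 24 libraries of polyA RNA (75-base single-end reads, per the labels) came as raw read counts per gene and as RPKM values that the authors deposited beside them. Reads were aligned with STAR 2.3.1 to hg19, per the submitters' processing notes. The sources used here name neither the counter nor its annotation or use of strand. The deposited RPKM values match those recomputed from the counts, and CPM and RPKM printed here were computed from counts and library totals. Counts were tested with edgeR 4.0.16 (quasi-likelihood, TMM factors, filterByExpr, two-sided, Benjamini-Hochberg over all genes tested, threshold 0.05), in 1 fit for each cell line and 1 for the control groups. In this report "called", "rose" and "fell" mean an adjusted p under that threshold, and adjusted p-values are edgeR's unless DESeq2 1.42.0 is named. Intervals at 95% and floors of 3 counts cover counting error only. Simulated counts with 200 changed genes, and all other genes equal between groups, were used to test the fits. Far fewer genes differ there than were called in the comparisons here, so that check does not cover such wide changes. Named genes are, in each comparison, up to 10 called genes per direction with the smallest adjusted p and a group mean of at least 1 CPM, the 8 highest RPKM levels per line and up to 4 genes per companion list, with the remaining called genes named to complete a count or an overview. Members and lists were chosen with earlier results of these data known. Alternatives were RLE scaling, library totals, no filter, DESeq2, the replicate number as a block, fits of the compared groups alone and leaving out each library. Duplicates came from separate cultures, and replicate numbers were not taken to pair libraries in the main fits. Whether same-numbered libraries of different groups belong together is not given in the titles. Duplicates differed by more than counting noise (chi-square per degree of freedom 2.32 to 13.8). 1 gene that matches the name pattern is not reported here.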

Additional observations from a re-analysis of the deposited data

Results flagged for a closer look

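The effect of ERG in SW13 cells differed between BRG1 and GFP cells, by the edgeR test of the difference itself, for 11 of the 31 collagen genes tested (37.8% of all genes were called). The difference of log2 changes was 1.00 for COL5A2, 1.09 for COL26A1, 3.61 for COL15A1 and 1.04 for COL23A1. It was -2.57 for COL1A1, -1.10 for COL18A1, -2.05 for COL9A1, -0.87 for COL5A3, -1.19 for COL5A1, -1.84 for COL16A1 and -0.50 for COL7A1. The calls of COL23A1, COL5A3, COL5A1, COL16A1 and COL7A1 were each lost without at least 1 library, and those of COL16A1 and COL7A1 also under DESeq2. The ERG level itself was higher with BRG1 than with GFP, and its part was not tested.

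Between BRG1 and BRG1-K785R cells the ERG effect differed for 14 of 31 genes (46.2% of all genes were called). The difference was 1.18 for COL5A2, 1.30 for COL14A1 and 0.44 for COL26A1. It was -1.39 for COL18A1, -1.68 for COL7A1, -1.35 for COL27A1, -3.67 for COL9A1, -1.51 for COL11A2, -2.22 for COL5A3, -1.37 for COL1A1, -0.51 for COL6A1, -5.51 for COL13A1 and -0.76 for COL12A1. The calls of COL26A1, COL6A1, COL13A1 and COL12A1 were each lost without at least 1 library, and COL26A1 was also lost with library totals. The call of COL5A1 (-1.04), outside the rule for named genes, was lost under DESeq2 and without at least 1 library. COL13A1 had 0 reads with BRG1-K785R and Empty, so its fitted difference is no bound.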

How the results depend on the processing

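Counts of collagen genes called stayed within 1.5 times under RLE scaling, library totals, no filter, DESeq2 and the replicate block in all 17 comparisons, and in fits of the compared groups alone in the 15 comparisons between 2 groups. When each library was left out in turn, 3 comparisons moved further. LNCaP ETV1 over Empty gave 9 to 17 calls against 14, LNCaP ERG over ETV1 gave 3 to 6 against 6, and SW13 ERG over Empty with GFP gave 6 to 9 against 13. The change of COL11A1 with shERG ran from -2.82 without the first shCt library to 0.84 without the second, and these shCt libraries held 5 and 67 of its reads. Of the named values under an alternative, 4112 kept direction and side of the threshold, 210 kept direction only and 1 turned. With the replicate block 22 genes were called for shERG over shCt, 21 for shARID1A over shCt, 11 for LNCaP ERG over Empty and 14 for SW13 ERG over Empty with GFP. Deviations of same-numbered libraries correlated at -0.157 to 0.104. Library totals shifted the median of all genes by 0.18 (log2) in shERG over shCt, -0.12 in shARID1A over shERG, 0.18 in ERG over Empty with BRG1-K785R, 0.13 in BRG1 over GFP, 0.21 in BRG1 over BRG1-K785R and -0.23 in the difference of ERG effects between BRG1 and BRG1-K785R. With 2 libraries a group, p-values rest on a spread shared across groups, and genes under 1 CPM rest on few reads.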
